A study of Homo sapiens with 6 samples.

Results

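The chromosome 19 zinc finger genes described here are the protein-coding genes of chromosome 19 whose symbol is ZNF followed by a number, and 249 of the 58735 genes in the count table met that rule. The rule itself uses biotype, chromosome and name and no expression value, but it was set with earlier results of these data known. The RNA came from LoVo, a human cell line established from colorectal cancer, after transfection of either a negative control siRNA (si-NC) or one that targets SRSF11, a serine/arginine-rich splicing factor (si-SRSF11), and polyadenylated transcripts were sequenced in 3 libraries per condition. Both conditions are the same cell line and carry an siRNA, and the labels give no time after transfection. The study calls the RNA samples independent, while neither it nor the labels say whether each came from its own culture or transfection, and the p-values measure the spread between these libraries. The SRSF11 siRNA used for sequencing is not named among the 3 that the study lists. The comparison addresses which genes differ in level after the knockdown, and the values are raw read counts per gene.

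Library totals ran from 14369525 to 16685719 counts, with each si-SRSF11 total above each si-NC total. SRSF11, the targeted gene, had 1271, 1281 and 1363 counts in si-NC and 789, 789 and 807 in si-SRSF11, a log2 fold change of -0.80 (SE 0.054, adjusted p = 6.1e-10 by edgeR's quasi-likelihood test), which went with the labels. One picture in the study brackets the same library names the other way round, and the deposited labels were used. Counts scaled by each library's total over tested genes and its TMM normalization factor (0.979 to 1.02) are given as CPM. Colorectal epithelial genes such as EPCAM (233 to 258 CPM) and KRT8 (3051 to 3448 CPM) were high, except KRT20 (0.414 to 1.28 CPM). The immune gene PTPRC and the fibroblast genes DCN and PDGFRA were at 0 in all 6 libraries, and CD14 (2.57 to 4.11 CPM) and COL1A1 (11.0 to 13.2 CPM) were detected. Mitochondrial genes took at most 7.25% of the counts in a si-NC library and at least 8.29% in a si-SRSF11 library, and their part in the results was not tested.

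A C2H2 zinc finger is a short fold in which a pair of cysteines and a pair of histidines hold a zinc ion, and each finger can read a few bases of DNA. Strings of fingers joined by a conserved linker give a protein a long recognition site. Most genes of the chromosome 19 clusters arose by repeated tandem duplication, and many encode an amino-terminal KRAB domain. KRAB binds the corepressor TRIM28 (KAP1), which brings the histone methyltransferase SETDB1 and HP1 proteins to chromatin. This pathway is best known for silencing retrotransposons. Because the genes are copies of each other, their reads are harder to assign than those of single-copy genes.

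The finger repeat can be read directly in the transcripts. The following 84 bases of GENCODE reference sequence encode 1 finger with its linker in 4 genes described below, 3 that were higher in si-SRSF11 and 1 that was lower. They are printed 5′ to 3′ on the coding strand, with the codons of the paired cysteines and paired histidines in capitals. All 4 lie on the minus strand of GRCh38 and within a single coding exon, at chr19:52116270-52116353 for ZNF616, chr19:9566594-9566677 for ZNF121, chr19:23654078-23654161 for ZNF675 and chr19:56088803-56088886 for ZNF787.

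ZNF616: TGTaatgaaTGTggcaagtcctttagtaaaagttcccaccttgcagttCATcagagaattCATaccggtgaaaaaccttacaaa

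ZNF121: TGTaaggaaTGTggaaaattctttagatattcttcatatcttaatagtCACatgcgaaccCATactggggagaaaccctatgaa

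ZNF675: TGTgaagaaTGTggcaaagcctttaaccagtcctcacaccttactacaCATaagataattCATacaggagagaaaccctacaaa

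ZNF787: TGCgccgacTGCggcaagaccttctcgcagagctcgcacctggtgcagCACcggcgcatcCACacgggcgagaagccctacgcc

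The capitals fall at the same positions in the 4 sequences, while the base composition differs. ZNF787 uses codons ending in C at each of the 4 sites, and its longest transcript is 70.34% G and C, against 40.46% in ZNF616, 40.41% in ZNF121 and 37.33% in ZNF675.

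Over all members, a pattern of paired cysteines and histidines found a median of 12 fingers in the protein translated from the longest coding sequence, with a range of 0 to 36. A match to the KRAB end of ZNF10, a well studied KRAB repressor, was found in 215 members and not in 34. The absence of a match at this threshold does not show that a protein lacks KRAB. The clusters were defined by position, a new one starting where the gap to the next member exceeded 500 kb. This put 238 members in 11 clusters of 3 or more and left 11 members on their own, and 133 members lay on the plus strand.

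Of the 249 members, 171 had at least 10 counts in at least 3 libraries and were tested. The 78 others had at most 10 counts in any library, and 36 of them had 0 in all 6. Among these 78, the mean CPM was higher in si-SRSF11 for 25, higher in si-NC for 17 and equal for 36. Of the 171, 158 had at least 10 counts in each library. Another 10 reached 10 counts in all 3 si-SRSF11 libraries but in only 1 or 2 of si-NC, so that si-SRSF11 alone would have passed them, 0 did the reverse, and 3 reached it in part of both groups. The counts and medians below are therefore descriptions of the members that passed. The 27 called members all had at least 10 counts in each library, and the 120 members with a mean of at least 5 CPM had a median log2 fold change of 0.15. Tested members were low, with a mean CPM of 0.576 to 113 and a median of 9.37. Their median on the log2 CPM scale was 3.25, against 4.42 for all 15801 tested genes. The median standard error of the log2 fold change was larger, 0.133 for members and 0.092 for all tested genes.

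At an adjusted p under 0.05, 25 members (14.6%) were higher in si-SRSF11 and 2 (1.17%) were lower. Of all tested genes, 13.2% were higher and 11.4% were lower. Against all tested genes, the share of higher members was thus near the background, and the lower side was where the counts differed. In a band of abundance given below, chosen after the data were seen, the higher share was larger than among other protein-coding genes. At an unadjusted p under 0.05, 43 members were higher and 3 were lower. In either direction this was 46 of 171, a smaller share than the 5731 of all 15801 tested genes. The median log2 fold change of the 171 was 0.14, against 0.00 for all tested genes and 0.01 for protein-coding genes. A positive log2 fold change was found in 129 members (75.4%), against 50.2% of all tested genes. The 3 libraries of 1 condition lay entirely above the 3 of the other in 49 members (28.7%), against 38.8% of all tested genes. Changes were small, with called folds between 1.17 and 1.75 in either direction, and none reached 2-fold.

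Of all counts, 0.228%, 0.236% and 0.229% fell on members in the 3 si-NC libraries, and 0.249%, 0.239% and 0.236% in the 3 si-SRSF11 libraries. On the TMM-scaled CPM scale their sum was 2284 ± 30.0 for si-NC and 2447 ± 45.6 for si-SRSF11 (SD, n = 3 each). Each si-SRSF11 library was above each si-NC library in both measures, by a narrow margin in the first. As bulk samples, the libraries cannot tell fewer cells with a transcript from less of it per cell.

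**Figure D1:**
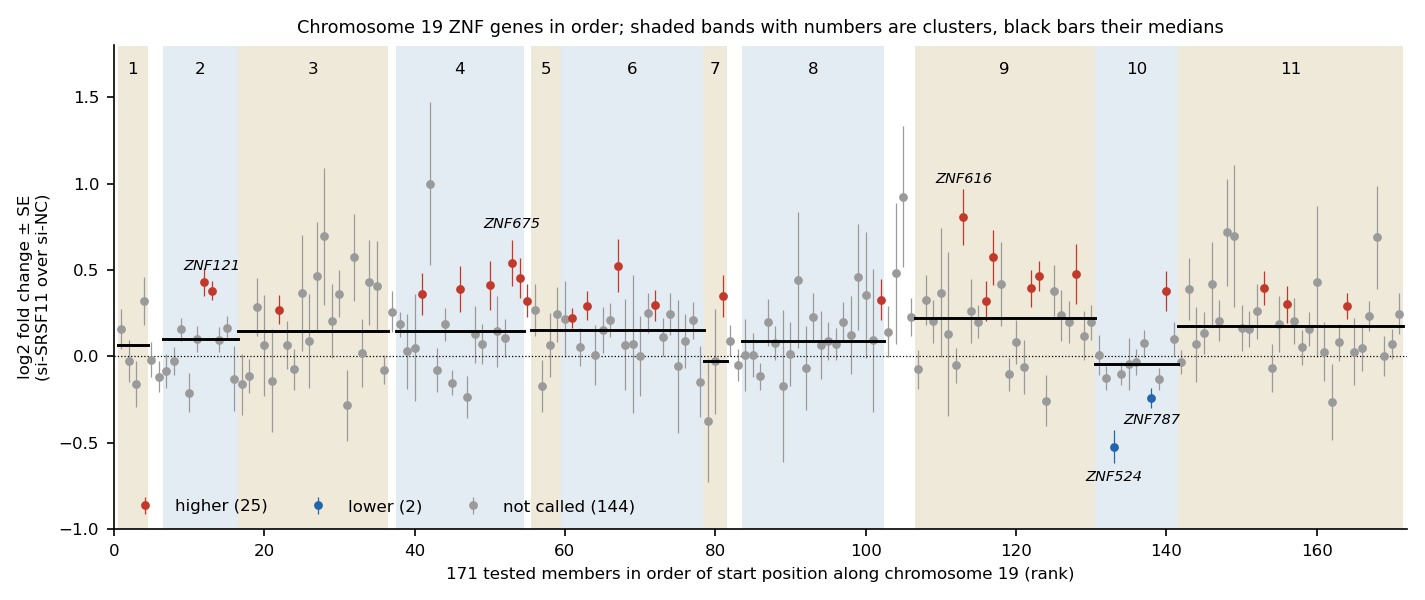
Log2 fold change with its standard error for the 171 tested members (points, vertical axis) in order of position along chromosome 19 (horizontal axis, rank). Red points are the 25 higher members, blue points the 2 lower ones and grey points those not called; bands are the 11 clusters and black bars their medians, of which only those of clusters 7 and 10 lie below 0.

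ZNF616, with 21 fingers and a KRAB match, had the largest rise among the called members. It had 56, 87 and 94 counts in si-NC and 164, 142 and 134 in si-SRSF11, so that the groups did not overlap. Scaled, this was 5.21 ± 1.18 CPM (SD, n = 3) against 9.15 ± 1.19, a log2 fold change of 0.81 (SE 0.16, adjusted p = 0.00082 by edgeR). ZNF616 (ENSG00000204611, minus strand, 52113091 to 52139922 of chromosome 19 in GRCh38) shared 0.838% of its exon bases with another gene and no 100-nt window with another transcript.

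ZNF675, which encodes a KRAB zinc finger protein also known as a TRAF6 inhibitor, had 152, 114 and 120 counts in si-NC and 209, 210 and 180 in si-SRSF11. Its log2 fold change was 0.54 (SE 0.13, adjusted p = 0.0047 by edgeR), and it shared no exon base or window with another gene. ZNF790 rose from 5.40 ± 0.985 to 7.78 ± 0.652 CPM (SD, n = 3), a log2 fold change of 0.53 (SE 0.16, adjusted p = 0.016). The groups did not overlap for either gene.

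ZNF845, with 26 fingers, had 66, 50 and 72 counts in si-NC and 89, 89 and 101 in si-SRSF11. Its log2 fold change of 0.48 (SE 0.17, adjusted p = 0.047) stood just under the threshold and was lost in 10 of 13 alternative fits. ZNF254 rose by 0.45 on the log2 scale, from 10.3 ± 1.04 to 14.1 ± 1.55 CPM (SD, n = 3; edgeR adjusted p = 0.0065), and ZNF100 from 6.20 ± 0.744 to 8.25 ± 0.704 CPM, a rise of 0.41 (adjusted p = 0.037). Both belong to the pericentromeric cluster and have a GC content near 34%, at 34.14% and 34.41%.

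ZNF468 had 238, 267 and 271 counts in si-NC and 381, 381 and 377 in si-SRSF11, without overlap. The log2 fold change was 0.46 (SE 0.086, adjusted p = 0.00040), with the 3 si-SRSF11 counts within 4 of each other. Its identity is uncertain, because 53.3% of its exon bases are shared with annotated neighbours that include ZNF28 and ZNF320, and another gene holds 99.2% of the 100-nt windows in its longest transcript. ZNF28, its neighbour on the same strand, was itself higher, from 11.7 ± 1.15 to 15.4 ± 0.939 CPM (SD, n = 3), and the pair share exon bases.

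ZNF121 had the smallest adjusted p of any member. It had 952, 1079 and 1025 counts in si-NC and 1397, 1444 and 1393 in si-SRSF11. In CPM it went from 67.5 ± 3.04 to 87.9 ± 2.13 (SD, n = 3), a log2 fold change of 0.38 (SE 0.054, adjusted p = 1.9e-05 by edgeR). No KRAB match was found in its 9-finger protein, and it shared no exon base with another gene. The gene directly before it, ZNF426, also rose, from 330, 397 and 383 counts to 550, 537 and 505, with a log2 fold change of 0.43 (SE 0.079, adjusted p = 0.00036). ZNF426 has a KRAB match and 11 fingers.

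ZNF524 and ZNF787 were the 2 lower members, and both lie in cluster 10. ZNF524, a short 4-finger protein known to bind telomeric repeats, had 389, 446 and 399 counts in si-NC and 274, 281 and 360 in si-SRSF11. Its level fell to 69.6% of si-NC, a log2 fold change of -0.52 (SE 0.097, adjusted p = 0.00040). It shares 14.1% of its exon bases with FIZ1, and si-SRSF11 replicate 3 stood apart from the other 2 libraries of its group.

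ZNF787 (7 fingers) had 1775, 1745 and 2049 counts in si-NC and 1632, 1560 and 1814 in si-SRSF11. The raw counts overlapped, while the scaled values, 123 ± 8.37 and 104 ± 7.64 CPM (SD, n = 3), did not. The log2 fold change was -0.24 (SE 0.058, adjusted p = 0.0036). Neither gene had a KRAB match.

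Per kilobase of exon, which allows genes to be compared, ZNF787 was the member with the highest level, 30.9 CPM per kb over the 6 libraries. ZNF581 (24.5), ZNF358 (23.3), ZNF428 (21.6) and ZNF580 (18.8 CPM per kb) followed. None of these 5 had a KRAB match, and their fingers numbered 7, 4, 9, 1 and 3. Apart from ZNF787 none was called, with log2 fold changes of 0.08 (SE 0.077) for ZNF581, -0.12 (SE 0.090) for ZNF358, -0.12 (SE 0.077) for ZNF428 and -0.03 (SE 0.074) for ZNF580. Their groups overlapped. ZNF580 and ZNF581 overlap each other and CCDC106, so their counts are uncertain, as are those of ZNF358 and ZNF428, which share 34.4% and 27.6% of their exon bases with other genes. The order of these 5 levels was not tested.

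Going along the chromosome, cluster 1 (2819874 to 2944971, 5 members from ZNF554 to ZNF77) held 4 tested genes and no call by edgeR or DESeq2, with 1 at an unadjusted p under 0.05. That gene was ZNF77, with 107, 133 and 152 counts in si-NC, 140, 188 and 193 in si-SRSF11, and a log2 fold change of 0.32 (SE 0.14, adjusted p = 0.092 by edgeR). Its groups overlapped, and it was called higher without si-SRSF11 replicate 1. Cluster 2 (8509678 to 9793180, 14 members) held ZNF426 and ZNF121, and the median over its 10 tested genes was 0.10.

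Cluster 3 (11483427 to 12640098, 26 members) had 20 tested genes and a median of 0.15, but only ZNF440 was called. ZNF440 had 317, 345 and 325 counts in si-NC and 453, 399 and 415 in si-SRSF11, with a log2 fold change of 0.27 (SE 0.086, adjusted p = 0.024).

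Cluster 4 (19668796 to 24129961) was the widest, spanning 4.46 Mb with 37 members, of which 17 were tested. It held 5 higher members, ZNF253, ZNF708, ZNF100, ZNF675 and ZNF254, and its median was 0.14. Its transcripts had a median GC content of 37.4%, and all 17 tested genes had a KRAB match. The called genes stood beside others that were not called. ZNF91, a repressor of SVA retrotransposons, had 232, 285 and 216 counts in si-NC and 301, 268 and 272 in si-SRSF11, and a log2 fold change of 0.11 (SE 0.11, adjusted p = 0.52 by edgeR). ZNF93, a repressor of older retrotransposon families, had the largest log2 fold change of any member, 1.00, on 18, 3 and 5 counts against 18, 18 and 20. With a standard error of 0.47 (adjusted p = 0.13) and 1 si-NC library level with si-SRSF11, it did not pass. Without that library, si-NC replicate 1, ZNF93 was called higher. ZNF91 and ZNF93, like the called members not listed by the rule in the methods, were named after their values were seen.

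Cluster 5 (34677639 to 34964049, 5 members) had 4 tested genes and no call by edgeR or DESeq2, with 0 at an unadjusted p under 0.05. ZNF181, its member with the smallest p, had 76, 120 and 105 counts in si-NC and 117, 130 and 138 in si-SRSF11 (log2 fold change 0.27, SE 0.15, adjusted p = 0.21 by edgeR).

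Cluster 6 (36182060 to 37817300, 26 members) had 19 tested and 4 higher members, ZNF146, ZNF260, ZNF790 and ZNF585B, with a median of 0.15. ZNF146, a protein made almost wholly of fingers, had 962, 949 and 951 counts in si-NC and 1214, 1180 and 1165 in si-SRSF11. Its log2 fold change of 0.22 (SE 0.057, adjusted p = 0.0057) was the smallest among the higher members. With ZNF565, ZNF146 has 10.8% of its exon bases in common.

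Cluster 7 (39984134 to 40090938) held 3 genes, of which ZNF780A was higher, from 12.1 ± 1.47 to 15.4 ± 2.21 CPM (SD, n = 3), a log2 fold change of 0.35 (adjusted p = 0.036 by edgeR) with overlapping groups. The median of the 3 was -0.03.

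Cluster 8 (43525497 to 44500524, 23 members) had 19 tested genes and a median of 0.09. ZNF180 was its 1 called member, with 154, 131 and 173 counts in si-NC and 204, 208 and 200 in si-SRSF11 (log2 fold change 0.33, SE 0.12, adjusted p = 0.044), and it was lost in 8 of 13 alternative fits.

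Cluster 9 (51571298 to 53580269, 40 members) had 24 tested genes, 6 higher members and the highest median of the 11 clusters, 0.22. The higher members were ZNF616, ZNF480, ZNF808, ZNF28, ZNF468 and ZNF845, and 19 of the 24 log2 fold changes were positive. ZNF808, a gene required for human pancreas development, had 79, 131 and 92 counts in si-NC and 170, 170 and 138 in si-SRSF11. Its log2 fold change was 0.57 (SE 0.16, adjusted p = 0.010) although the scaled groups overlapped, and 9.39% of its windows occur in other genes. The imprinted gene ZNF331, at the end of the cluster, had 6, 8 and 8 counts in si-NC and 5, 4 and 1 in si-SRSF11, below the filter.

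Cluster 10 (55476332 to 56671783, 16 members) differed in makeup from the rest. Only 2 of its 11 tested genes had a KRAB match, and their median GC content was 64.8%. Its median log2 fold change was -0.04, and 4 of 11 were positive. It held both lower members and 1 higher one, ZNF470, which had 164, 176 and 227 counts in si-NC and 280, 262 and 240 in si-SRSF11, a log2 fold change of 0.38 (SE 0.12, adjusted p = 0.019). ZNF470, at 40.99% GC and with a KRAB match, is unlike ZNF524 and ZNF787 in both respects.

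Cluster 11 (57191500 to 58481230) was the largest, with 43 members and 30 tested. Its median was 0.17, and 27 of 30 log2 fold changes were positive, yet 3 members were called. ZNF776 had 217, 262 and 232 counts in si-NC and 351, 311 and 334 in si-SRSF11, with a log2 fold change of 0.40 (SE 0.098, adjusted p = 0.0045). ZNF8 rose from 450, 580 and 557 counts to 659, 728 and 677, and ZNF587B from 11.9 ± 0.843 to 14.7 ± 1.07 CPM (SD, n = 3). All 3 share sequence with other genes, in 8.59%, 18.8% and 14.3% of their windows.

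Among the isolated members, ZNF507 was higher, with 290, 338 and 286 counts in si-NC and 418, 432 and 366 in si-SRSF11 (log2 fold change 0.32, SE 0.095, adjusted p = 0.016). In order of tested members, ZNF675, ZNF254 and ZNF507 formed the only run of 3 neighbours called in 1 direction, though ZNF507 lies 8.22 Mb beyond the end of ZNF254 and outside the cluster. The other neighbours called together were the pairs ZNF426 and ZNF121, ZNF480 and ZNF808, and ZNF28 and ZNF468. Across 150 pairs of neighbouring tested members in a cluster, the log2 fold changes were nearly unrelated (Pearson's r = 0.06, Spearman's rho = 0.03, a description across genes that share the same libraries).

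By identity over the shorter protein, the most alike neighbours were ZNF177 and the read-through gene ZNF559-ZNF177, overlapping annotations whose proteins are the same there. Over the whole alignment they were 66.7% identical, and ZNF587 and ZNF417 were the most alike neighbours at 98.1%. ZNF177 and ZNF559-ZNF177 were at 0 counts in all 6 libraries, and they share 90.8% and 83.8% of their exon bases with other genes.

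Summed over its members, cluster 6 went from 226 ± 6.44 CPM under si-NC to 260 ± 4.47 CPM under si-SRSF11 (SD, n = 3), or 115% of the control level. Cluster 9 went from 226 ± 5.83 to 259 ± 8.33 CPM, also 115%. In cluster 10 the sum was 439 ± 23.1 CPM in si-NC and 406 ± 22.3 in si-SRSF11, or 92.4%, with overlapping groups. These sums weigh the highest genes most, and they carry no test.

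Members with and without a KRAB match were also described apart. Of 142 tested members with a match, 21 were higher and 0 lower by edgeR, and 12 and 0 by DESeq2. At an unadjusted p under 0.05, 38 were higher and 0 lower, beside 5731 of all 15801 tested genes in either direction. Without si-SRSF11 replicate 2, ZNF738, which has a match and a log2 fold change of -0.24 over all libraries, was called lower. The median log2 fold change of the 142 was 0.17 and 114 (80.3%) were positive. Of 29 tested members without a match, 4 were higher (ZNF121, ZNF146, ZNF260 and ZNF507) and 2 lower, with a median of 0.01 and 15 (51.7%) positive. The higher shares, 14.8% with a match and 13.8% without, were both near the 13.2% of all tested genes. Members with a match took 0.145%, 0.152% and 0.142% of the counts in si-NC and 0.165%, 0.160% and 0.152% in si-SRSF11, without overlap. Those without one took 0.0828%, 0.0839% and 0.0865% against 0.0841%, 0.0787% and 0.0839%, with overlap. The difference between members with and without a match was not tested.

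**Figure D2:**
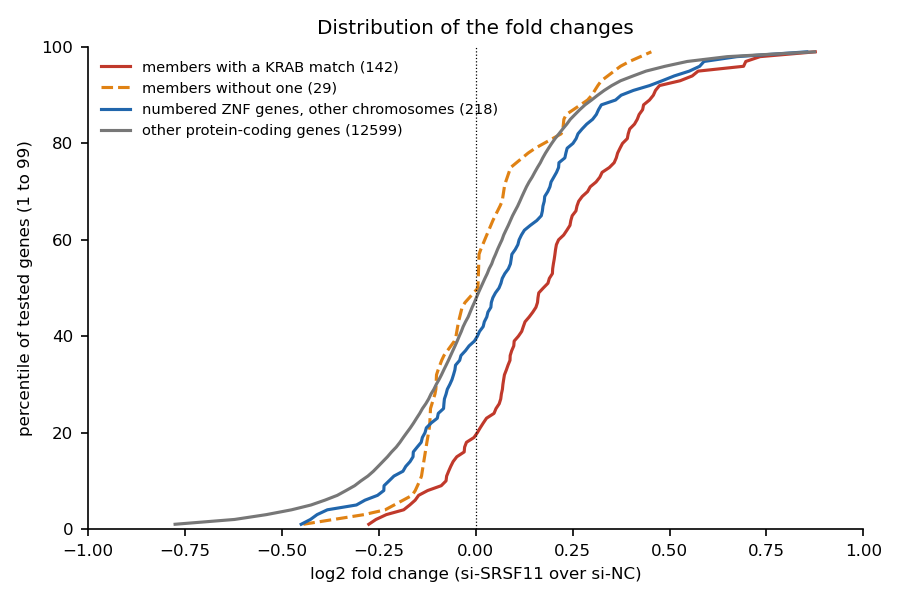
Percentile (vertical axis) against log2 fold change (horizontal axis) for tested members with a KRAB match (red), members without one (dashed orange), numbered ZNF genes on other chromosomes (blue) and other protein-coding genes (grey). The red curve lies to the right of the others through its middle, crossing the median at 0.17 against 0.06 for ZNF genes elsewhere and 0.01 for members without a match. KRAB matches were searched in members only, so the ZNF genes elsewhere are not split by a match. The median over all members was 0.14.

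GC content differed along with the KRAB match. The 25 higher members had a median GC content of 40.5% in the longest transcript, those not called 43.4%, and the 2 lower ones 64.92% and 70.34%. The log2 fold change was weakly related to GC content over the 171 members (r = -0.27, rho = -0.18), over 12592 other protein-coding genes (r = -0.13, rho = -0.15) and over 218 numbered ZNF genes on other chromosomes (r = -0.28, rho = -0.31). These are descriptions across genes, which share libraries.

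At a split of 45% GC, set after the data were seen, the 107 tested KRAB members below it had a median log2 fold change of 0.19 and the 35 above it 0.16, with 32 of those 35 positive. The 22 members without a match and above the split had a median of -0.04, and the 7 below it one of 0.22. Calls differed more than medians. Of the 114 tested members below the split, 23 (20.2%) were higher and 0 lower, against 2 (3.51%) and 2 (3.51%) of the 57 above it. Among KRAB members, 17.8% were higher below it and 5.71% above it. Among members without a match, 4 of the 7 below it were higher and 0 lower. Of the 22 above it, 0 were higher and 2 lower. Other protein-coding genes had medians of 0.05 below the split and -0.01 above it. Of these, 17.4% were higher and 8.25% lower among the 4376 below, and 14.3% higher and 14.3% lower among the 8216 above. The part of GC content in the members' values was not tested further.

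**Figure D3:**
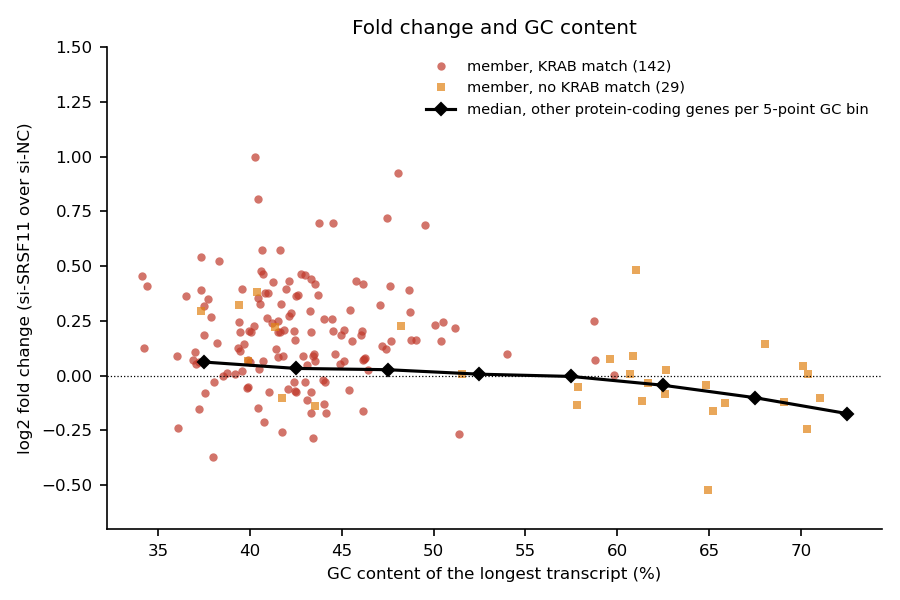
Log2 fold change (vertical axis) against GC content of the longest transcript in percent (horizontal axis) for tested members with (red circles) and without (orange squares) a KRAB match, with the median of other protein-coding genes per 5-point GC bin (black). Red points between 40% and 50% GC sit mostly above the black line, while the orange points above 55% GC scatter around it.

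The members' fold changes were also set beside those of other genes within a band of abundance. Between 2 and 5 on the log2 CPM scale, 115 members had a median log2 fold change of 0.16, with 22 (19.1%) higher and 1 (0.870%) lower. The 4515 other protein-coding genes in this band had a median of 0.01, with 521 (11.5%) higher and 435 (9.63%) lower. This band was also chosen after the data were seen.

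Numbered ZNF genes elsewhere and other genes of chromosome 19 were set beside the members. Of 218 tested ZNF genes on other chromosomes, 37 (16.97%, above the 14.6% of members) were higher and 14 (6.42%) lower, with a median log2 fold change of 0.06. Of 805 other tested protein-coding genes of chromosome 19, 82 (10.2%) were higher and 151 (18.8%) lower, with a median of -0.04. The 33 of these that lie within the spans of the clusters had 2 higher, 2 lower and a median of 0.03. No test was made of these differences, and the ZNF genes on other chromosomes were not split by KRAB match.

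Sharing of sequence touched many of the calls. Among the 25 higher members, 14 shared over 1% of their exon bases with another gene and 9 shared over 1% of their windows. Among 144 members tested and not called, the numbers were 75 and 43. The strand setting of the counting is not given in the sources used here. Whether reads of overlapping genes on opposite strands were told apart is therefore not known.

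RefSeq promoters (GRCh38.p14, 250 bases before to 50 after the start) were matched for 217 of the 249 members. They were searched on both strands for short motifs, each counted by itself even where motifs overlapped. The letters CCGGAAG, a core that ETS family factors can bind, were found in 99 of 217 (45.6%), against 10.7% of 27305 promoters of all genes. The share was 59.1% of 22 higher members, 37.5% of 128 not called and 56.1% of 66 not tested. The GC box GGGCGG was found in 68.2% of members and 44.6% of all promoters, CCAAT in 53.9% and 35.7%, and TATAAA in 1.84% and 11.95%, with 3 of the 22 higher members (13.6%) among the 4 members that hold it. A match describes these letters only.

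The promoters of ZNF616, with the largest called rise, and ZNF787, the highest member and 1 of the 2 that fell, show that the same letters occur on both sides. Both are on the minus strand, at chr19:52139889-52140188 for ZNF616 and chr19:56121246-56121545 for ZNF787, and capitals mark CCGGAAG or its reverse complement CTTCCGG.

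ZNF616: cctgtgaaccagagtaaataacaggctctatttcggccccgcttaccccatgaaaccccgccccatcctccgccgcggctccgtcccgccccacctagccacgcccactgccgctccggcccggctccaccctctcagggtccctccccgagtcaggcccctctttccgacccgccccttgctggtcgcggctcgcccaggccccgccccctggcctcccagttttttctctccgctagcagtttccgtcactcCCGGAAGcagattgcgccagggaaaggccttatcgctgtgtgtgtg

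ZNF787: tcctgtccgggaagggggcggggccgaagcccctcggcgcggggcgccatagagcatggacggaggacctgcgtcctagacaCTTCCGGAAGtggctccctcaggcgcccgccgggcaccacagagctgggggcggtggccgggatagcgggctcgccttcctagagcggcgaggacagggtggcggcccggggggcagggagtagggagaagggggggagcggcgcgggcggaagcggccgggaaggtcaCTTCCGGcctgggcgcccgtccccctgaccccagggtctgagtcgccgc

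ZNF616 has 1 such match and ZNF787 has 3, of which 2 overlap on opposite strands. Median GC was 60.3% in the promoters of higher members, 61.0% in those not called and 58.3% over all promoters, so the low GC content of the higher members' transcripts was not seen in their promoters.

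Genes linked to the corepressor pathway that KRAB proteins act through were read as a list of 32, all of them tested. The list reaches beyond TRIM28, SETDB1 and the HP1 genes to other chromatin genes, among them DNA methyltransferases, further histone methyltransferases and remodellers. Of the 32 genes, 16 were higher and 1 (3.13%) was lower, with a median log2 fold change of 0.15. Of all tested genes, 13.2% were higher and 11.4% lower, and of protein-coding genes 15.4% and 12.1%. The listed genes were also more abundant than all tested genes (median log2 CPM 6.37 against 4.42) with a smaller median SE (0.057 against 0.092). TRIM28, the KRAB corepressor, had 7342, 7288 and 7854 counts in si-NC and 8320, 8649 and 9276 in si-SRSF11, a log2 fold change of 0.13 (SE 0.046, adjusted p = 0.039 by edgeR) without overlap. Its call was lost in 7 of 13 alternative fits, among them scaling by library size alone, where the log2 fold change was 0.10. SETDB1, the histone H3 lysine methyltransferase of the complex, had a level of 33.3 ± 1.97 CPM under si-NC and 36.5 ± 1.99 CPM under si-SRSF11 (SD, n = 3) and was not called (log2 fold change 0.13, SE 0.072, adjusted p = 0.19).

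UHRF1, which reads hemimethylated DNA for the maintenance methyltransferase, had the smallest adjusted p of the list, with 859, 788 and 786 counts in si-NC and 1084, 1303 and 1227 in si-SRSF11 (log2 fold change 0.48, SE 0.067, adjusted p = 1.6e-05). The HP1 genes CBX5 and CBX1 had log2 fold changes of 0.32 (SE 0.057) and 0.24 (SE 0.050). HDAC2, a histone deacetylase of the NuRD complex, had one of 0.25 (SE 0.046), and SMARCAD1, a chromatin remodeller that binds TRIM28, one of 0.45 (SE 0.094). As the list was chosen with earlier results known, its count is a description.

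The number of higher members depended on single libraries. It was 14 without si-NC replicate 1, 14 without si-NC replicate 3, 16 without si-SRSF11 replicate 1 and 15 without si-SRSF11 replicate 2. The median log2 fold change stayed between 0.12 and 0.17. Higher calls over all tested genes fell in these fits too, from 2081 to 1473, 1540, 1839 and 1576 in the same order. By DESeq2 the number of higher members was 16, beside 1564 over all tested genes. Clusters 4, 6 and 9 then held 2, 4 and 4 higher members. In clusters 3, 7 and 8 the single edgeR calls, ZNF440, ZNF780A and ZNF180, were lost by DESeq2, which left 0 calls there, with 3, 1 and 1 higher members at an unadjusted p under 0.05 by edgeR. Called in each of the 14 fits were 9 members, namely ZNF121, ZNF146, ZNF426, ZNF468, ZNF616, ZNF675 and ZNF776 on the higher side and ZNF524 and ZNF787 on the lower side. ZNF254 was lost without si-SRSF11 replicate 2, ZNF8 and ZNF28 without si-NC replicate 1, ZNF790 without either of these 2 libraries, and ZNF808 without si-NC replicate 1 or 3. ZNF260 was lost without si-NC replicate 3 or si-SRSF11 replicate 2, and ZNF585B without si-NC replicate 3 or si-SRSF11 replicate 1. The other 11 called members were lost in 3 to 10 of the 13 fits. Calls were also gained when a library was left out, at most 4, without si-NC replicate 2. Without the members that share over 1% of their exon bases with another gene, 81 tested members remained, with 11 higher, 1 lower and a median of 0.10. Of the 9 members called in each fit, this subset leaves out ZNF146, ZNF468, ZNF776 and ZNF524.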

How the data were processed

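The authors sequenced poly(A)-selected RNA of LoVo cells as 150 bp paired-end reads and deposited raw counts per gene for 6 libraries, with no normalization or filter on low counts. The aligner, the counting program, its strand setting and the test for differential expression are not given in the sources used here. Identifiers, names and coordinates of all rows were those of GENCODE 29 (Ensembl 94, GRCh38). Library totals were 14369525 to 16685719 counts, and all intervals and errors reflect 3 libraries per group.

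Samples were grouped by the deposited labels. Genes reaching 10 counts in 3 or more libraries were scaled by TMM and tested on condition alone with edgeR 4.0.16 (R 4.3.3, glmQLFit and glmQLFTest), with Benjamini-Hochberg adjustment over all 15801 tested genes and a threshold of 0.05. SE is the absolute log2 fold change divided by the square root of F. An exact permutation test of 3 against 3 libraries cannot go below p = 0.1, and none is quoted. Fits were tested on simulated data. Alternatives were DESeq2 1.42.0, library size, upper quartile, other filters, protein-coding genes only, the replicate block, each library left out, and subsets of members.

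Exon overlap was computed with bedtools 2.31.1, sequence sharing in 100-nt windows of the longest transcript, and KRAB matches with BLAST 2.17.0 against the first 75 residues of ZNF10 (E-value up to 1e-05). Members and lists were chosen with earlier results of these data known. Named genes were the 8 largest called rises and falls without overlap, the smallest adjusted p per cluster, the 5 highest levels per kb, runs of 3 called neighbours, the most alike neighbours, and TRIM28, SETDB1 and 5 further genes of the corepressor list. Others were named after their values were seen. A gene of the corepressor list and a marker gene are not reported here.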

Additional observations from a re-analysis of the deposited data

How the results depend on the processing

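The number of higher members, 25, was 16 with scaling by library size alone, 16 by DESeq2 and 14 to 23 with each library left out. It was 11 without members sharing over 1% of exon bases. Over all tested genes, 2081 were higher, 1585 with library size alone, 1564 by DESeq2 and 1473 to 1981 with each library left out. The number of lower members, 2, was 1 without members sharing over 1% of exon bases, and that subset had a median log2 fold change of 0.10. Scaling by library size moved the median of all genes to -0.03, and members stayed 0.14 above it. The corepressor list had 17 calls, 11 with library size alone and as few as 11 with a library left out. With each library left out, the log2 fold change of ZNF358 ran from -0.24, where it was called, to 0.0049 and that of ZNF580 from -0.10 to 0.041. The replicate block gave 25 higher, 2 lower and a median of 0.14. With each gene's group mean subtracted from its log2 CPM, same-numbered libraries correlated at 0.015, 0.036 and 0.04 over tested genes. These values were too low to pair the libraries, although each correlated best with its own number. A gap of 1 Mb gave 10 clusters, joining clusters 10 and 11. The cause of these shifts was not tested. With at least 50 counts in 3 libraries, 135 members were tested and the calls stayed at 25 and 2.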
